A study of Mus musculus with 12 samples.

Results

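Cyp11a1 and Akr1c18, a pair of steroid enzyme genes, were followed in mouse T cells that had met dendritic cells of a foreign strain. The members were every cluster of the array (a set of probes summarised to 1 value) whose platform annotation gives exactly 1 symbol, equal to either gene. That rule found 3 clusters of 34365, 2 for Cyp11a1 and 1 for Akr1c18, and with the brightest cluster standing for each gene they made 2 of the 22180 genes tested. Both genes were picked for high levels in CD4 control cells and large differences between the groups in these same arrays. Their levels and differences are therefore given as a description, with no test.

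The study set Foxp3-positive T cells induced in culture against Foxp3-negative effector cells, in the CD4 and the CD8 lineage. All T cells were from C57BL6-Foxp3-GFP reporter mice, whose cells turn green (GFP) when they express Foxp3, the master factor of regulatory T cells, and all wells held 200000 T cells, 20000 BALB/c dendritic cells (CD11c) and IL-2 at 5 ng/mL. The CD4 Foxp3-positive and CD8 Foxp3-positive groups had retinoic acid (40 nM) and TGF-β (5 ng/mL) added and were sorted as GFP-positive, and the CD4 control and CD8 control groups received IL-2 alone and were sorted as GFP-negative. CD4 cells were cultured for 5 days and CD8 cells for 4 days, and each of the 4 groups had 3 arrays, A to C. Treatment and Foxp3 sort changed together within a lineage, and lineage and length of culture changed together, so their parts in a difference cannot be told apart. Cells were pooled before staining, and no label states whether arrays A to C stand for separate cultures or animals, so the p-values cover the spread among these samples alone, and that spread may be technical.

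Cyp11a1 encodes the cholesterol side-chain cleavage enzyme, a cytochrome P450 inside mitochondria that turns cholesterol into pregnenolone, the starting point of all steroid hormones. It depends on carrier proteins such as Star to bring cholesterol in, and on ferredoxin (Fdx1) and its reductase for electrons. Enzymes of the Hsd3b family then make progesterone from pregnenolone. Akr1c18 encodes the 20α-hydroxysteroid dehydrogenase of the mouse, an aldo-keto reductase that turns progesterone into a form with little activity at its receptor and is best known from the ovary at the end of pregnancy. Outside the glands, mouse type 2 helper T cells are known to express Cyp11a1, and this dehydrogenase activity has long been known in mouse T cells.

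Values below are the deposited log2 levels (RMA), so a difference of 1 is a doubling of array signal. Group values are the mean ± SD of 3 arrays, and differences are given with the standard error (SE) of a limma model fitted to all genes. The median of all genes' means was 5.60. No background level was available, so folds are ratios of array signal. A level is compared between groups and not between clusters, apart from the choice of a gene's brightest cluster and the names of the Cyp11a1 clusters. Less RNA per cell and fewer cells that make it cannot be told apart in these bulk samples. Array medians lay between 5.23 and 5.33, and the arrays of a group correlated over all genes at 0.992 to 0.995 (genes are not independent replicates). Foxp3 averaged 12.44 in CD4 Foxp3-positive and 5.76 in CD4 control cells, and 12.48 in CD8 Foxp3-positive and 5.66 in CD8 control cells, and Cd4 averaged 11.92 and 12.31 in the CD4 groups (Foxp3-positive and control) and 5.17 and 5.36 in the CD8 groups (Foxp3-positive and control), as the labels say. Cd8b1, which encodes the CD8 beta chain, averaged 11.97 in CD8 Foxp3-positive and 11.86 in CD8 control cells. In the CD4 groups it read 6.02, 6.05 and 6.45 on Foxp3-positive arrays A to C, against 7.62, 8.02 and 7.53 on control arrays A to C, a fall of 1.55 ± 0.14 (limma adjusted p = 2.81e-06). Cd8b1 thus moved with the members in CD4 cells, and its part in their levels was not tested.

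Brighter and dimmer name the Cyp11a1 clusters by their mean over all 12 arrays, and the brighter one stands for the gene in ranks. The brighter Cyp11a1 cluster set CD4 control cells apart from the other groups. Its level was 6.34, 6.43 and 6.40 on CD4 Foxp3-positive arrays A to C, against 11.75, 11.67 and 11.75 on CD4 control arrays A to C. On CD8 Foxp3-positive arrays A to C it was 5.16, 5.14 and 5.16, against 5.71, 5.86 and 5.40 on CD8 control arrays A to C. All 3 CD4 control arrays were more than 5 log2 units above every other array, and no group's arrays overlapped another's. The order of the groups was CD4 control, CD4 Foxp3-positive, CD8 control and CD8 Foxp3-positive.

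In CD4 cells the brighter Cyp11a1 cluster was 40.4-fold lower in the Foxp3-positive group (6.39 ± 0.04) than in the control group (11.73 ± 0.05), a log2 difference of -5.34 ± 0.11 (SE). By absolute size this difference ranked 9 of 22180 genes. In CD8 cells it was 1.42-fold lower in the Foxp3-positive group (5.15 ± 0.01) than in the control group (5.66 ± 0.23), a log2 difference of -0.50 ± 0.11 (SE). Both CD8 group means lay near the median of all genes. The difference in CD4 cells minus that in CD8 cells was -4.83 ± 0.15 (SE) on the log2 scale.

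Set by lineage, the brighter Cyp11a1 cluster was 67.1-fold higher in CD4 control than in CD8 control cells, a log2 difference of 6.07 ± 0.11 (SE) that ranked 6 of 22180. Between the Foxp3-positive groups it was 2.36-fold higher in CD4 than in CD8 cells, a log2 difference of 1.24 ± 0.11 (SE) that ranked 138. So a gap between the lineages was present among Foxp3-positive cells too, at a smaller size.

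By group means the brighter Cyp11a1 cluster read above the dimmer one in CD4 control cells alone, and below it in the other groups. The dimmer Cyp11a1 cluster had its highest level in the same group, CD4 control, but a narrower range. It read 6.90, 7.40 and 6.79 on CD4 Foxp3-positive arrays A to C, against 8.19, 8.03 and 7.77 on CD4 control arrays A to C. It read 6.53, 6.80 and 6.54 on CD8 Foxp3-positive arrays A to C, against 5.91, 5.74 and 5.99 on CD8 control arrays A to C. CD4 control arrays were again the highest, CD8 control arrays were the lowest, and the Foxp3-positive arrays of the lineages overlapped between them.

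In CD4 cells the dimmer Cyp11a1 cluster was 1.96-fold lower in the Foxp3-positive group (7.03 ± 0.33) than in the control group (8.0 ± 0.21), a log2 difference of -0.97 ± 0.16 (SE). In CD8 cells it was 1.67-fold higher in the Foxp3-positive group (6.62 ± 0.15) than in the control group (5.88 ± 0.13), a log2 difference of 0.74 ± 0.16 (SE). The clusters of Cyp11a1 therefore agreed in direction in CD4 cells and had opposite directions in CD8 cells. The dimmer cluster was 4.34-fold higher in CD4 control than in CD8 control cells (log2 difference 2.12 ± 0.16, SE) and differed by 0.40 ± 0.16 (SE) between CD4 and CD8 Foxp3-positive cells, where the arrays overlapped. Which Cyp11a1 transcripts each cluster reads was not analysed here.

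Akr1c18 separated the lineages in both the Foxp3-positive and the control cells. Its level was 9.28, 9.66 and 8.80 on CD4 Foxp3-positive arrays A to C, against 11.16, 10.92 and 11.82 on CD4 control arrays A to C. It was 4.61, 4.73 and 4.49 on CD8 Foxp3-positive arrays A to C, against 5.08, 4.29 and 4.68 on CD8 control arrays A to C. All 6 CD4 arrays were above all 6 CD8 arrays, the CD4 groups did not overlap, and the CD8 groups overlapped at levels below the median of all genes.

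In CD4 cells Akr1c18 was 4.15-fold lower in the Foxp3-positive group (9.25 ± 0.43) than in the control group (11.30 ± 0.47), a log2 difference of -2.05 ± 0.26 (SE) that ranked 287 of 22180. In CD8 cells the Foxp3-positive group (4.61 ± 0.12) and the control group (4.68 ± 0.39) differed by -0.07 ± 0.26 (SE), less than the spread between the arrays. Akr1c18 was 98.3-fold higher in CD4 control than in CD8 control cells, a log2 difference of 6.62 ± 0.26 (SE) that ranked 3, and 24.9-fold higher in CD4 Foxp3-positive than in CD8 Foxp3-positive cells, at 4.64 ± 0.26 (SE), which ranked 4. The difference in CD4 cells minus that in CD8 cells was -1.98 ± 0.36 (SE). Its spread within groups (pooled SD 0.38) was wider than that of the brighter Cyp11a1 cluster (0.12) and the dimmer one (0.22).

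**Figure D1:**
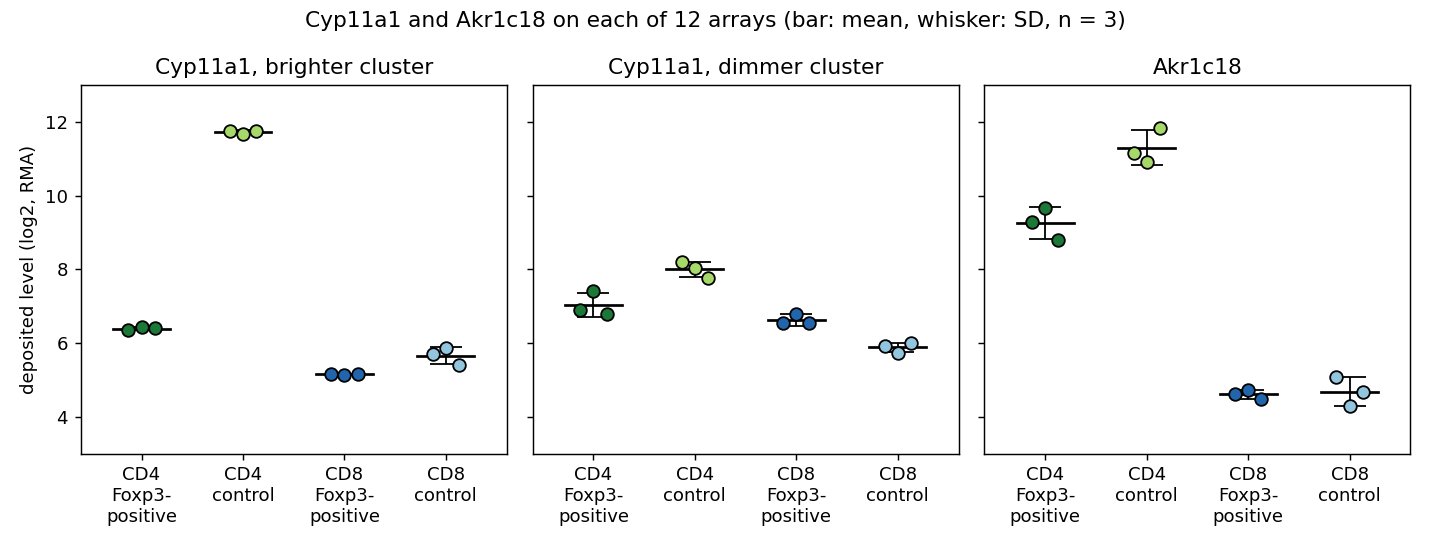
Deposited log2 level (y axis) of the brighter Cyp11a1 cluster, the dimmer Cyp11a1 cluster and Akr1c18 in the 4 groups (x axis); points are arrays, bars the mean of 3 arrays and whiskers the SD. The brighter Cyp11a1 cluster lies between 11.67 and 11.75 in CD4 control cells and under 7 elsewhere, while Akr1c18 is above 8 in both CD4 groups and near 5 or below in both CD8 groups.

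By group means the brighter Cyp11a1 cluster and Akr1c18 thus had the same order of groups, with gaps of different size. The CD8 groups overlapped in Akr1c18 alone. In CD4 Foxp3-positive cells the brighter Cyp11a1 cluster was 1.24 above CD8 Foxp3-positive cells and differed from CD4 control cells by -5.34, whereas Akr1c18 was 4.64 above CD8 Foxp3-positive cells and differed from CD4 control cells by -2.05. Over the 12 arrays, which are 4 groups of 3, Akr1c18 correlated with the brighter Cyp11a1 cluster at Pearson's r = 0.85 (Spearman's rho 0.83) and with the dimmer one at r = 0.89 (rho 0.87). The Cyp11a1 clusters correlated with each other at r = 0.85 (rho 0.70). Without overlap between the arrays of the groups were 3 of 3 clusters in the CD4 comparison (37.8% of all genes), 2 of 3 in the CD8 comparison (33.5%), 3 of 3 between the controls (33.7%) and 2 of 3 between the Foxp3-positive groups (22.7%). The genes were chosen from these contrasts, so nothing is read from those counts.

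The promoters are shown because both genes had their highest level in the same group. RefSeq lists 2 start sites for Cyp11a1 and 1 for Akr1c18 (mouse build GRCm38.p6). Each window runs from 250 bases before to 50 bases after the start, at chr9:57997774-57998073 and chr9:58014702-58015001 on the plus strand for Cyp11a1 and at chr13:4150597-4150896 on the minus strand for Akr1c18. Capitals mark the letters matched by a motif searched on both strands.
Cyp11a1 start 1: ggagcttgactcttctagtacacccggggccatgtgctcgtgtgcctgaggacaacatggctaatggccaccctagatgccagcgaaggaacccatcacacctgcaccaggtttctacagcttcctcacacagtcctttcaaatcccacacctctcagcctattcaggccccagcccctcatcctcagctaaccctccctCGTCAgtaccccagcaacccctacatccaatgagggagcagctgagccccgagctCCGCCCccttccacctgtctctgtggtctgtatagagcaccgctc
Cyp11a1 start 2: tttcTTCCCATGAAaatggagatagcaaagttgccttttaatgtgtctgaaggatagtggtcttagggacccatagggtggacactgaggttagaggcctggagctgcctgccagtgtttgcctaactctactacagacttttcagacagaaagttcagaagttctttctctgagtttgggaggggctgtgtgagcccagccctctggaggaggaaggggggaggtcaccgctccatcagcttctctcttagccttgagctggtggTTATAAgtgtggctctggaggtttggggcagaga
Akr1c18: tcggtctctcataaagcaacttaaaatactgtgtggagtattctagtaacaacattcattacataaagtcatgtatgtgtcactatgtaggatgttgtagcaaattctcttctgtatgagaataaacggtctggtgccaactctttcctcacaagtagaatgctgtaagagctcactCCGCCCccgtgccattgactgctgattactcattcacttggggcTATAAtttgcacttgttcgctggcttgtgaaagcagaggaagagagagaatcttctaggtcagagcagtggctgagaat

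Positions in these windows are counted from the start site, with negative numbers before it. The window of Cyp11a1 start 1 (58.3% G and C) held TGACG, the core of the site for cAMP-response factors, on the other strand at -50 to -46, and CCGCCC, a site for Sp1, at 6 to 11. The window of Cyp11a1 start 2 (51% G and C) held TTCNNNNGAA, the spacing known for STAT6, at -246 to -237, and TATAA at 18 to 22, which overlaps a TATAA on the other strand at 17 to 21. The window of Akr1c18 (42.3% G and C) held CCGCCC at -73 to -68 and TATAA at -29 to -25. Thus CCGCCC and TATAA were the motifs found for both genes.

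Of 32851 mouse promoters with windows of that length, CCGCCC was in 35.7%, TATAA in 24.9%, TGACG in 20.8% and TTCNNNNGAA in 6.95%. AAGGTCA, an exact form of the site of the steroidogenic nuclear receptors (4.72% of promoters), had no match in the 3 windows. Neither had GATAA, a form of the GATA site (25.4%), nor TTCNNNGAA, for other STAT factors (8.3%). A match says only that these letters are present. Other forms of these sites were not searched, so a missing match does not show that a factor has no site there.

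Genes that bring cholesterol to mitochondria, where Cyp11a1 works, went both ways. Of 14 measured genes of this list, 4 rose and 4 fell in CD4 Foxp3-positive against CD4 control cells, and 4 rose and 3 fell in CD8 Foxp3-positive against CD8 control cells, by limma's adjusted p under 0.05. Of all genes, 12.1% rose and 10.4% fell in CD4 cells, and 9.39% rose and 10.6% fell in CD8 cells. The median log2 difference of the list was -0.01 in CD4 cells (all genes 0.00) and 0.01 in CD8 cells (all genes -0.02). Star, the acute carrier of cholesterol into mitochondria, averaged 5.75 ± 0.05 in CD4 Foxp3-positive and 5.88 ± 0.43 in CD4 control cells, and 5.85 ± 0.28 in CD8 Foxp3-positive and 6.10 ± 0.17 in CD8 control cells. It passed in neither comparison (limma adjusted p = 0.698 in CD4 and 0.451 in CD8 cells), and the arrays of its CD4 groups overlapped. Star, Fdx1, Nr5a1, Nr3c1, Cyp17a1, Cyp21a1, Cyp11b1, Cyp11b2 and the Hsd3b genes other than Hsd3b7 are not among the genes that the naming rule takes, and were picked with their values known.

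The genes with the largest differences in that list handle cholesterol away from mitochondria. Abca1, which exports cholesterol, rose by 1.88 ± 0.11 (SE) in CD8 cells (limma adjusted p = 9.18e-08) and by 0.44 ± 0.11 in CD4 cells (0.00976). Scarb1, a receptor for lipoprotein cholesterol, fell by 1.10 ± 0.11 in CD8 cells (7.72e-06) and by 0.71 ± 0.11 in CD4 cells (0.000267). Npc2, a carrier inside lysosomes, fell by 0.98 ± 0.14 in CD4 cells (0.000143), with 11.03 ± 0.26 in CD4 Foxp3-positive and 12.01 ± 0.07 in CD4 control cells, rose by 0.60 ± 0.14 in CD8 cells (0.00638), and was 1.30 ± 0.14 higher in CD4 control than in CD8 control cells (2.01e-05). Stard4, a sterol carrier of the cytosol, fell by 0.65 ± 0.11 in CD8 cells (0.00067) and by 0.37 ± 0.11 in CD4 cells (0.0226, and up to 0.0988 without CD4 Foxp3-positive array A or CD4 control array A or C). Acsl4, the brightest gene of the list that passed in neither, differed by 0.35 ± 0.12 in CD8 cells (0.0536) and 0.27 ± 0.12 in CD4 cells (0.127).

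Of the electron transfer partners 3 were measured, and by limma 0 passed in CD4 cells (0 also at an unadjusted p under 0.05) and 1 rose in CD8 cells. Beside this, 12.1% of all genes rose and 10.4% fell in CD4 cells, and 9.39% rose and 10.6% fell in CD8 cells. Fdx1, which hands electrons to Cyp11a1, averaged 6.75 ± 0.09 in CD4 Foxp3-positive and 6.87 ± 0.04 in CD4 control cells, and 6.93 ± 0.12 in CD8 Foxp3-positive and 6.95 ± 0.11 in CD8 control cells. Its 4 group means lay within 0.3 log2 units, and it passed in no comparison. Cyb5a, cytochrome b5, a helper of later steroid enzymes, rose by 0.64 ± 0.11 in CD8 cells (limma adjusted p = 0.00085) and differed by -0.20 ± 0.11 in CD4 cells (0.208). H6pd, which supplies reducing power in the endoplasmic reticulum, differed by -0.16 ± 0.09 in CD4 cells (0.247) and 0.05 ± 0.09 in CD8 cells (0.787). The reductase of ferredoxin was not analysed here.

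Some enzymes that act after Cyp11a1 on the way to hormones, picked with their values known, were below the median of all genes in every group. These are Hsd3b1, Hsd3b2, Hsd3b3, Hsd3b5 and Hsd3b6, then Cyp17a1 and the adrenal enzymes Cyp21a1, Cyp11b1 and Cyp11b2. None of them passed in any of the 5 contrasts by limma. Other steroid synthesis enzymes, among them Hsd17b7, Hsd17b10 and Hsd11b1, were above that median on every array. Of 20 measured steroid synthesis enzymes, 2 rose and 3 fell in CD4 cells (12.1% and 10.4% of all genes). In CD8 cells 2 rose and 3 fell (9.39% and 10.6% of all genes), and 1 rose without CD8 Foxp3-positive array B. Of these 20 enzymes, 4 were higher and 1 was lower in CD4 control than in CD8 control cells (8.76% and 12.1% of all genes), and 1 was higher and 1 lower in CD4 than in CD8 Foxp3-positive cells (2.3% and 2.41% of all genes). The 5 measured Hsd3b genes other than Hsd3b7 had group means between 2.18 and 4.35. Cyp17a1, which leads to androgens, averaged 3.93 ± 0.20 in CD4 Foxp3-positive and 4.23 ± 0.18 in CD4 control cells, and 4.10 ± 0.03 in CD8 Foxp3-positive and 4.17 ± 0.27 in CD8 control cells.

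The enzymes of this list that passed with the largest differences are described here, and the others that passed are not named. Sult2b1, which adds sulphate to cholesterol, fell by 1.47 ± 0.19 in CD8 cells (limma adjusted p = 0.000113) and by 0.98 ± 0.19 in CD4 cells (0.00225). Hsd17b7, of cholesterol synthesis, fell by 0.68 ± 0.14 in CD8 cells (0.00447) and by 1.19 ± 0.14 in CD4 cells (4.85e-05). Hsd11b1, which regenerates active glucocorticoid, rose by 1.01 ± 0.12 in CD8 cells (5.51e-05), differed by -0.21 ± 0.12 in CD4 cells (0.254), and was lower in CD4 than in CD8 Foxp3-positive cells, at -0.78 ± 0.12 (0.00223). Hsd3b7, an enzyme of bile acid synthesis, rose by 0.70 ± 0.13 in CD4 cells (0.00155). Hsd17b10, a mitochondrial dehydrogenase, differed by -0.26 ± 0.10 in CD4 cells (0.0955) and -0.09 ± 0.10 in CD8 cells (0.633).

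Of 11 other P450 enzymes and oxidases that act on sterols or retinoids, 2 rose and 1 fell in CD4 cells (12.1% and 10.4% of all genes). In CD8 cells 2 rose and 2 fell (9.39% and 10.6% of all genes). Cyp26b1, which breaks down retinoic acid, rose by 2.35 ± 0.18 in CD4 cells (limma adjusted p = 9.62e-07) and by 1.38 ± 0.18 in CD8 cells (0.000133). Cyp26a1, of the same function, rose by 1.53 ± 0.21 in CD4 cells (0.000162) and by 0.78 ± 0.21 in CD8 cells (0.0208, but 0.0794 without CD8 Foxp3-positive array C and 0.0857 without CD8 control array C). Cyp51, of cholesterol synthesis, fell by 0.53 ± 0.12 in CD4 cells (0.00608) and by 1.09 ± 0.12 in CD8 cells (3.01e-05). Cyp39a1, an oxysterol hydroxylase, fell by 0.73 ± 0.16 in CD8 cells (0.00642), and Cyp46a1, the cholesterol hydroxylase of the brain, passed in neither. In CD4 control against CD8 control cells, 0 of the 11 were higher by limma (0 also at an unadjusted p under 0.05) and 2 were lower. Of all genes, 8.76% were higher and 12.1% lower in that comparison.

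**Figure D2:**
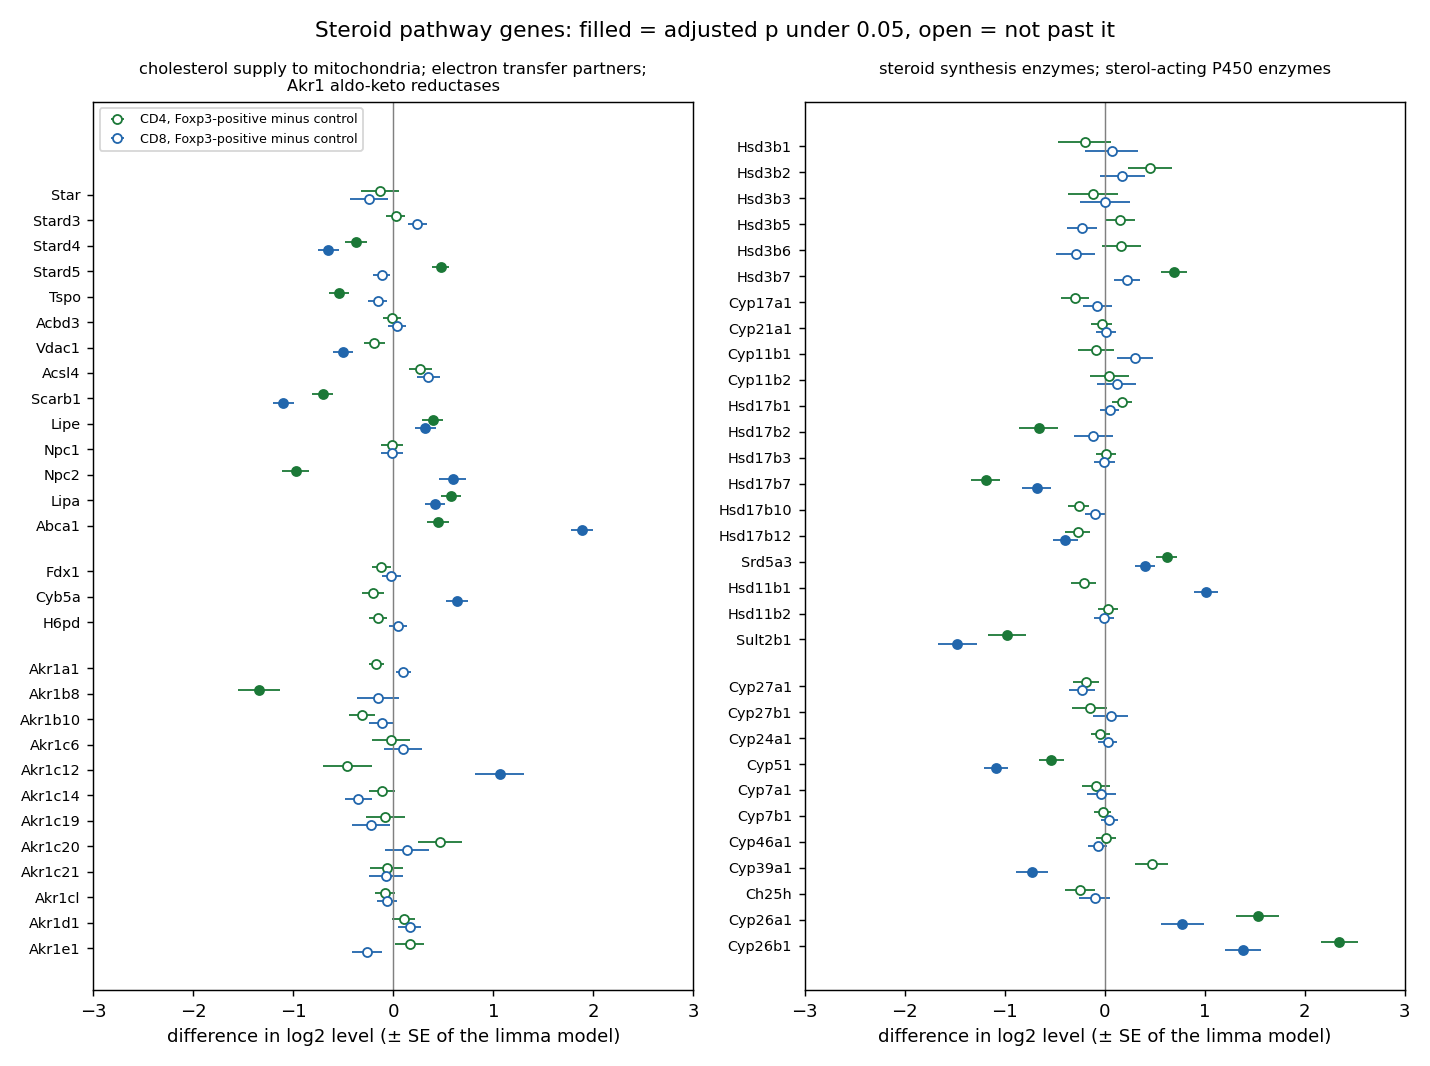
Log2 difference, Foxp3-positive minus control, in CD4 cells (green) and CD8 cells (blue) on the x axis for each measured gene of 5 pathway lists (rows); bars are the SE of the limma model and filled points have an adjusted p under 0.05. Star, Fdx1 and the Hsd3b genes other than Hsd3b7 are open and near 0, while Abca1 (1.88 in CD8 cells), Cyp26b1 (2.35 in CD4 cells), Akr1b8 (-1.35 in CD4 cells) and Sult2b1 (-1.47 in CD8 cells) lie farther out.

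The relatives of Akr1c18 were counted beside all genes. Of all genes, 12.1% rose and 10.4% fell in CD4 cells, and 9.39% rose and 10.6% fell in CD8 cells. Between the controls, 8.76% were higher and 12.1% lower in CD4 than in CD8 cells. Of 12 other measured Akr1 aldo-keto reductases, 0 rose and 1 fell in CD4 cells, 1 rose and 0 fell in CD8 cells, and 2 were higher and 0 lower in CD4 control than in CD8 control cells by limma (2 fell in CD4 cells without CD4 control array A). At an unadjusted p under 0.05 these counts were 0 and 3, 1 and 1, and 2 and 1. The CD4 difference minus the CD8 difference, tested as an interaction, was negative in 2 of the 12 and positive in 0 (6.01% and 7.48% of all genes), or in 3 and 0 at an unadjusted p under 0.05. Akr1b8, an aldose reductase relative, averaged 4.08 ± 0.40 in CD4 Foxp3-positive and 5.43 ± 0.39 in CD4 control cells, and 4.11 ± 0.14 in CD8 Foxp3-positive and 4.26 ± 0.18 in CD8 control cells. It fell by 1.35 ± 0.21 in CD4 cells (limma adjusted p = 0.000395) and was 1.16 ± 0.21 higher in CD4 control than in CD8 control cells (0.00143), so CD4 control was its highest group as well, at a level below the median of all genes. Akr1a1, the brightest of the family and a general aldehyde reductase, differed by -0.17 ± 0.07 in CD4 cells (0.123) and 0.10 ± 0.07 in CD8 cells (0.433).

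Akr1c12, which lies beyond Akr1c19 from Akr1c18, was ordered like the dimmer Cyp11a1 cluster. It read 4.47, 4.66 and 4.12 on CD4 Foxp3-positive arrays A to C, against 5.28, 4.51 and 4.85 on CD4 control arrays A to C, and 3.85, 3.59 and 4.28 on CD8 Foxp3-positive arrays A to C, against 3.24, 2.90 and 2.39 on CD8 control arrays A to C. The CD4 groups overlapped and the CD8 groups did not. It rose by 1.06 ± 0.25 in CD8 cells (limma adjusted p = 0.00754), differed by -0.46 ± 0.25 in CD4 cells (0.22), and was 2.04 ± 0.25 higher in CD4 control than in CD8 control cells (6.89e-05). A further cluster annotated to both Akr1c13 and Akr1c12 averaged 6.75 ± 0.34 in CD4 Foxp3-positive and 7.12 ± 0.10 in CD4 control cells, and 6.13 ± 0.39 in CD8 Foxp3-positive and 5.19 ± 0.42 in CD8 control cells. The Akr1c genes are close copies, so probes can read more than 1 of them, and the level of any single Akr1c gene, Akr1c18 included, is uncertain to that extent.

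The genes next to each member on the chromosome were looked up in the RefSeq order (assembly GRCm38.p6), a choice made after earlier results were seen. Beside Cyp11a1 on chromosome 9 lie Arid3b, Ubl7 and Sema7a on the near side and Ccdc33, Stra6 and Islr on the far side. Stra6, a membrane receptor through which cells take up vitamin A, was ordered as the dimmer Cyp11a1 cluster, with 7.74, 7.28 and 7.53 on CD4 Foxp3-positive arrays A to C, against 9.65, 9.04 and 10.10 on CD4 control arrays A to C. It read 6.11, 6.18 and 6.24 on CD8 Foxp3-positive arrays A to C, against 5.85, 5.99 and 5.98 on CD8 control arrays A to C. All CD4 arrays were above all CD8 arrays, and CD4 control arrays were the highest.

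Stra6 fell by 2.08 ± 0.20 in CD4 cells (limma adjusted p = 6.94e-06), differed by 0.24 ± 0.20 in CD8 cells (0.508), and was 3.66 ± 0.20 higher in CD4 control than in CD8 control cells (9.55e-08) and 1.34 ± 0.20 higher in CD4 than in CD8 Foxp3-positive cells (0.00179). Ccdc33, between Cyp11a1 and Stra6, differed by -0.49 ± 0.16 in CD4 cells (0.0452, and up to 0.169 without CD4 Foxp3-positive array A or B, CD4 control array A or C, any 1 CD8 Foxp3-positive array or CD8 control array A, and under other settings). Ubl7 and Sema7a rose in both lineages, by 0.40 ± 0.09 and 0.56 ± 0.16 in CD4 cells (0.00368 and 0.0221) and by 0.64 ± 0.09 and 0.54 ± 0.16 in CD8 cells (0.000131 and 0.0281), opposite to the brighter Cyp11a1 cluster. The calls of Sema7a were lost in CD4 cells without CD4 Foxp3-positive array A or B or CD4 control array B (adjusted p up to 0.0962), and in CD8 cells without CD8 Foxp3-positive array A or B or any 1 CD8 control array (up to 0.109). Islr and Arid3b rose in CD8 cells, by 1.53 ± 0.14 (5.4e-06) and 0.41 ± 0.08 (0.00279), and passed in CD4 cells in neither case. Around Akr1c18 on chromosome 13, Tubal3, Ucn3 and Akr1c14 on the near side and Akr1c19, Akr1c6, Akr1c20 and Akr1c21 on the far side passed in none of the 5 contrasts.

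**Figure D3:**
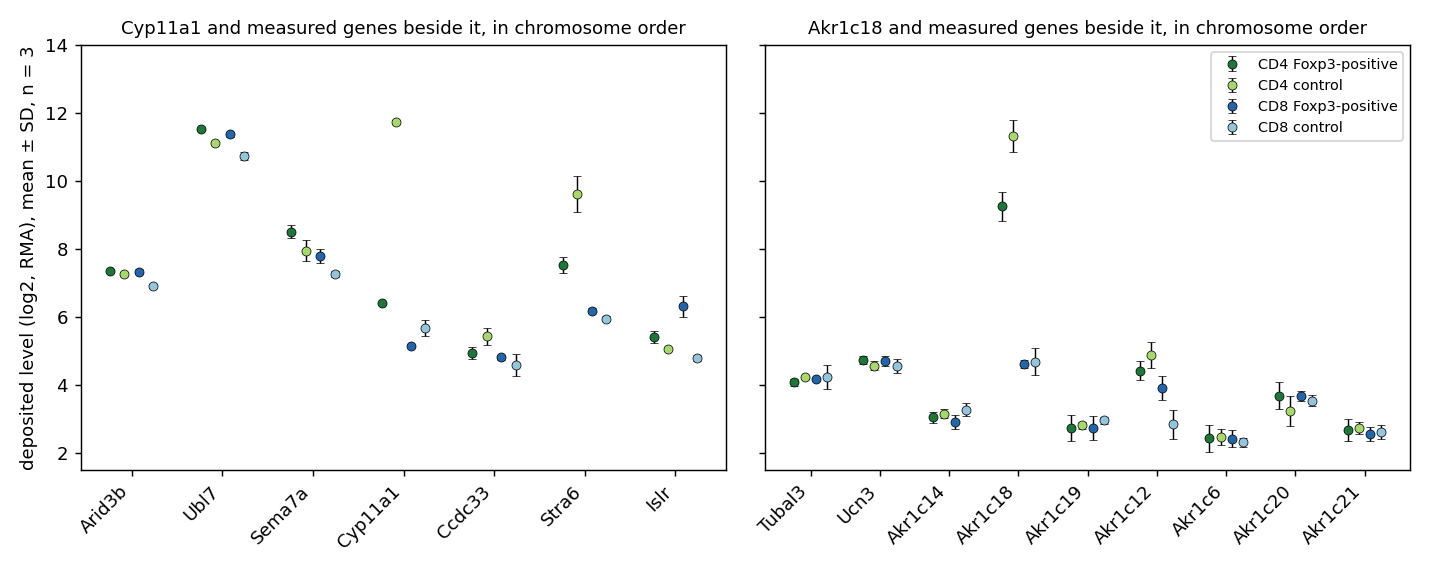
Deposited log2 level (y axis, mean ± SD of 3 arrays) of Cyp11a1 (brighter cluster) and Akr1c18 and of measured genes beside them in chromosome order (x axis), in the 4 groups. Stra6 shares the high level of Cyp11a1 in CD4 control cells (9.60 against 7.52 in CD4 Foxp3-positive cells in Stra6), while Akr1c12 is the neighbour of Akr1c18 that passed a test, at 4.88 in CD4 control and 2.84 in CD8 control cells.

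Steroid receptors and their partners passed in both directions. Of 15 measured genes, 3 rose and 2 fell in CD4 cells (12.1% and 10.4% of all genes). In CD8 cells 2 rose and 5 fell (9.39% and 10.6% of all genes). There 3 fell without CD8 control array A or CD8 Foxp3-positive array C, and 1 rose without CD8 control array B, CD4 control array B or any 1 CD8 Foxp3-positive array. Paqr8, a membrane receptor for progesterone, rose by 1.53 ± 0.15 in CD4 cells (limma adjusted p = 8.93e-06) and by 1.18 ± 0.15 in CD8 cells (0.000109). Paqr7, of the same family, passed in neither. The glucocorticoid receptor gene Nr3c1 differed by -0.23 ± 0.11 in CD4 cells (0.161) and by -0.35 ± 0.11 in CD8 cells (0.0337, and up to 0.128 without CD8 Foxp3-positive array B or C or CD8 control array A or C). Fkbp5, a chaperone partner that restrains this receptor and is itself induced by glucocorticoid, fell by 1.46 ± 0.12 in CD4 cells (1.2e-06) and by 1.65 ± 0.12 in CD8 cells (5.87e-07). Its relative Fkbp4 fell by 0.76 ± 0.10 in CD8 cells (0.000142), and the oestrogen receptor gene Esr1 rose by 0.87 ± 0.12 in CD4 cells (0.00012).

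Of 12 genes known to be induced by glucocorticoid, 2 rose and 6 fell in CD4 cells (12.1% and 10.4% of all genes). In CD8 cells 2 rose and 2 fell (9.39% and 10.6% of all genes), and 1 fell without CD8 control array A or CD8 Foxp3-positive array A. The list's median was -0.32 in CD4 cells (all genes 0.00) and -0.16 in CD8 cells (all genes -0.02). Sgk1, a kinase that acts on ion transport, rose by 1.79 ± 0.18 in CD4 cells (limma adjusted p = 8.74e-06) and by 2.13 ± 0.18 in CD8 cells (2.68e-06), and Klf9, a transcription factor, by 1.38 ± 0.14 in CD4 cells (7.61e-06) and by 0.74 ± 0.14 in CD8 cells (0.00164). Mt2, a metal-binding protein, read 10.06, 9.14 and 11.28 on CD4 Foxp3-positive arrays A to C, against 11.51, 11.82 and 11.51 on CD4 control arrays A to C. It fell by 1.45 ± 0.37 in CD4 cells (0.0129, but 0.0513 without CD4 control array B). The difference was -0.94 without CD4 Foxp3-positive array B and -2.01 without CD4 Foxp3-positive array C. Per1, a clock gene, passed in neither. Members of the list thus passed in opposite directions within the same cells.

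Known regulators of steroid enzyme genes gave a mixed count. Of 17 measured, 2 rose and 3 fell in CD4 cells (12.1% and 10.4% of all genes), and 2 rose and 2 fell in CD8 cells (9.39% and 10.6% of all genes). In CD8 cells 0 rose without CD8 control array B or CD8 Foxp3-positive array C, 1 rose without CD8 Foxp3-positive array A or B or CD8 control array A, and 1 fell when any array but CD8 Foxp3-positive A was left out. Nr5a1, the steroidogenic factor of adrenal and gonad, averaged 5.09 ± 0.21 in CD4 Foxp3-positive and 5.03 ± 0.09 in CD4 control cells, and 4.94 ± 0.12 in CD8 Foxp3-positive and 5.16 ± 0.11 in CD8 control cells, below the median of all genes in each, and passed in no comparison. Nr4a1, an orphan nuclear receptor that acts on these enzymes in the glands, rose by 1.89 ± 0.18 in CD4 cells (limma adjusted p = 4.67e-06), opposite to both members there. In CD8 cells Nr4a1 rose by 0.63 (0.0221, and up to 0.101 without CD8 control array B or CD8 Foxp3-positive array C or with only the groups compared). Crem, a cAMP-responsive factor, fell by 0.95 ± 0.14 in CD4 cells (0.00021). Stat5a, of the STAT5 factors through which prolactin and IL-2 signal, rose by 0.60 ± 0.10 in CD4 cells (0.000524). It also rose by 0.315 in CD8 cells (0.037, and up to 0.101 without any 1 CD8 array or with median centring). Stat6, which carries the IL-4 signal, passed in neither.

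Gata3, the type 2 helper factor and the only gene of the regulator list that also stands in the type 2 list, read 9.65, 9.37 and 9.60 on CD4 Foxp3-positive arrays A to C, against 10.79, 10.63 and 10.87 on CD4 control arrays A to C. It read 8.81, 8.52 and 8.73 on CD8 Foxp3-positive arrays A to C, against 8.97, 8.66 and 8.73 on CD8 control arrays A to C. The CD4 groups did not overlap, and the CD8 groups did. Gata3 fell by 1.23 ± 0.12 in CD4 cells (limma adjusted p = 6.2e-06). It was 1.98 ± 0.12 higher in CD4 control than in CD8 control cells (1.73e-07) and 0.85 ± 0.12 higher in CD4 than in CD8 Foxp3-positive cells (0.000984). This is the order of groups seen for Akr1c18 and for the brighter Cyp11a1 cluster. Of 17 measured type 2 helper genes, a list chosen with these results in view, 2 rose and 13 fell in CD4 cells (12.1% and 10.4% of all genes) and 7 rose and 2 fell in CD8 cells (9.39% and 10.6%). In CD4 control against CD8 control cells 16 were higher and 0 lower by limma (8.76% and 12.1% of all genes), or 17 and 0 at an unadjusted p under 0.05. Between CD4 and CD8 Foxp3-positive cells 6 were higher and 2 lower (2.3% and 2.41% of all genes). The cytokine genes Il13 and Il4 fell by 6.77 ± 0.15 and 4.43 ± 0.15 in CD4 cells (2.12e-11 and 5.83e-10), Il10 by 4.86 ± 0.30 (1.1e-07), and Epas1, a hypoxia factor gene, by 6.10 ± 0.14 (2.51e-11).

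Markers of the glands in which Cyp11a1 is best known were counted beside all genes. Of all genes, 12.1% rose and 10.4% fell in CD4 cells, and 9.39% rose and 10.6% fell in CD8 cells. In CD4 against CD8 cells, 8.76% were higher and 12.1% lower between the controls, and 2.3% and 2.41% between the Foxp3-positive groups. Of 10 measured markers of steroid-making glands, 0 rose and 1 fell in CD4 cells, and 0 passed by limma in CD8 cells, between the controls or between the Foxp3-positive groups (0 also at an unadjusted p under 0.05). The gene that fell was Inha, an inhibin subunit, by 0.42 ± 0.11 (limma adjusted p = 0.0155, but 0.0677 without CD4 control array B), and it was named after its value was seen. The signal summed over the gland list ranged over 323 to 339 in CD4 Foxp3-positive and 354 to 398 in CD4 control cells, and over 346 to 364 in CD8 Foxp3-positive and 346.5 to 383.8 in CD8 control cells. The 12 sums thus lay between 323 and 398.

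Other cell types that the cultures or the sort could hold were summed in the same way. Their counts are to be read beside the shares of all genes given for the gland markers. The 13 mast cell and basophil markers summed to 569 to 978 in CD4 Foxp3-positive and 301 to 447 in CD4 control cells, and to 720 to 825 in CD8 Foxp3-positive and 459 to 580 in CD8 control cells. In that list 2 rose and 0 fell in CD4 cells, with log2 differences from -0.31 to 2.73. In CD8 cells 1 rose and 1 fell, with log2 differences from -1.32 to 1.39. The 12 dendritic cell markers summed to 2593 to 3694 in CD4 Foxp3-positive and 2733 to 3411 in CD4 control cells, and to 3374 to 3899 in CD8 Foxp3-positive and 2253 to 2961 in CD8 control cells, with 1 risen and 2 fallen in CD4 cells and 3 risen and 2 fallen in CD8 cells. The 10 macrophage and monocyte markers summed to 462 to 525 in CD4 Foxp3-positive and 657 to 707 in CD4 control cells, and to 543 to 720 in CD8 Foxp3-positive and 587 to 763 in CD8 control cells, with 1 risen and 1 fallen in CD4 cells and 3 risen and 1 fallen in CD8 cells. The 7 B cell markers summed to 6948 to 7881 in CD4 Foxp3-positive and 2122 to 2354 in CD4 control cells, and to 9293 to 10120 in CD8 Foxp3-positive and 4113 to 4885 in CD8 control cells, most of it from Ighm, with 2 risen and 1 fallen in CD4 cells and 3 risen in CD8 cells. Of 11 T cell markers 2 rose and 5 fell in CD4 cells and 2 rose and 1 fell in CD8 cells. The part of other cells in the members' levels was not tested.

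A search over 1708 genes with a group mean at or above the median and group means at least 1 log2 unit apart gave the genes whose levels over the 12 arrays were most like each member. For the brighter Cyp11a1 cluster these were Slc37a3, a sugar-phosphate carrier relative (r = 0.994), Ffar2, the receptor of short-chain fatty acids (0.993), Adamtsl4 of the extracellular matrix (0.992), Paxbp1 (0.990), Gpm6b, a membrane glycoprotein (0.989), and Adam15, a membrane protease (0.989). Ffar2 read 4.67, 4.81 and 4.90 on CD4 Foxp3-positive arrays A to C, against 8.51, 8.76 and 8.85 on CD4 control arrays A to C, and averaged 4.48 ± 0.09 in CD8 Foxp3-positive and 4.64 ± 0.16 in CD8 control cells. The CD4 control arrays were the highest, as for Cyp11a1, while CD4 Foxp3-positive exceeded CD8 Foxp3-positive cells by 0.31 in Ffar2 and by 1.24 in the brighter Cyp11a1 cluster. As their choice by likeness largely fixes, all 6 genes fell in CD4 cells, with log2 differences from -1.24 in Slc37a3 to -3.91 in Ffar2. The choice of genes depended on the measure, since 0 of the 6 remained with Spearman's rho and 2 with lineage means taken out.

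For Akr1c18 the genes most like it were Cd40lg, the ligand with which CD4 cells help B cells (r = 0.988), Slamf1, a costimulatory receptor (0.975), Tiam1, an activator of Rac (0.972), Etv6, a transcription factor (0.967), Cd4 itself (0.967) and Tnfrsf4, the OX40 receptor (0.963). Cd40lg read 6.79, 7.06 and 7.13 on CD4 Foxp3-positive arrays A to C, against 8.46, 8.46 and 8.16 on CD4 control arrays A to C, and averaged 4.25 ± 0.20 in CD8 Foxp3-positive and 4.29 ± 0.04 in CD8 control cells. Both CD4 groups were above both CD8 groups, and the CD4 control group was the higher of the CD4 groups, as for Akr1c18. All 6 were higher in CD4 than in CD8 cells in both the controls and the Foxp3-positive groups, by 1.13 in Tiam1 to 6.95 in Cd4 between the controls. Their choice by likeness largely fixes this direction. In CD4 cells 4 of the 6 fell, and Tiam1 and Cd4 differed by -0.11 and -0.39 (limma adjusted p = 0.512 and 0.253). The 4 include Slamf1, at -0.34 (0.0376), which was lost without 5 of the 6 CD4 arrays taken out 1 at a time, with an adjusted p up to 0.143. Here too the choice depended on the measure, and 0 of the 6 remained with Spearman's rho or with lineage means taken out.

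By Pearson's r the lists of most similar genes had no gene in common. Among the 1708 genes, Akr1c18 ranked 304 in likeness to the brighter Cyp11a1 cluster, and that cluster ranked 75 in likeness to Akr1c18.

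**Figure D4:**
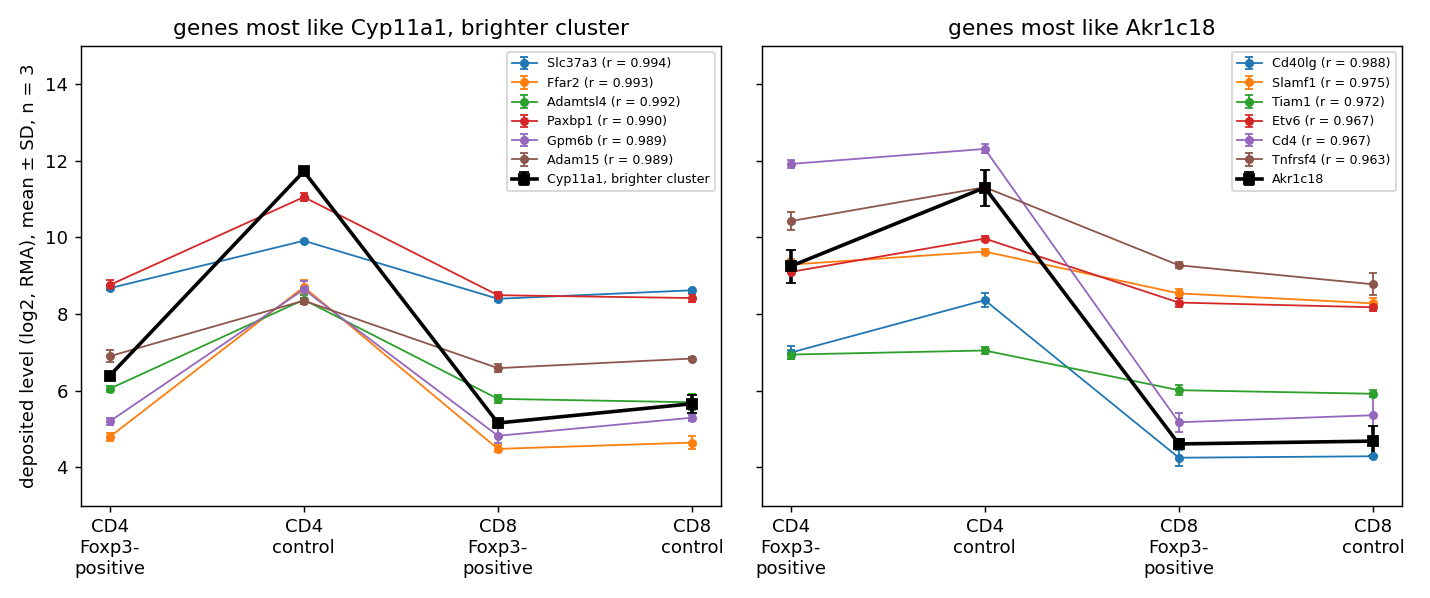
Deposited log2 level (y axis, mean ± SD of 3 arrays) in the 4 groups (x axis) of the brighter Cyp11a1 cluster (left) and Akr1c18 (right), in black, with the 6 genes most like each by Pearson's r over 12 arrays. The genes like Cyp11a1 peak in CD4 control cells, as Ffar2 at 8.71 there and 4.79 in CD4 Foxp3-positive cells, while those like Akr1c18 stay higher in both CD4 groups than in both CD8 groups. The choice by likeness largely fixes these patterns.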

How the data were processed

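RNA of 12 samples of sorted T cells was hybridised to Affymetrix arrays. The deposited values are log2 levels per transcript cluster, for which the submitters' processing notes name RMA and Affymetrix Expression Console; tool versions and the genome build of the array were not given in the sources used here. RMA gives all arrays the same distribution, so a change in total RNA per cell would not show. Scanner files were not used here.

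Clusters were named by the platform annotation (23521 with 1 symbol, 1814 with several, 9030 with none listed), and the brightest cluster stood for each of 1082 genes with more than 1. One linear model with 4 group means over all 12 arrays was fitted in R 4.3.3 with limma 3.58.1 (lmFit, then eBayes; 8 residual degrees of freedom). P-values were two-sided and adjusted by Benjamini-Hochberg over 22180 genes in each of 5 contrasts (threshold 0.05). The method was tested on simulated data. No member was tested. The number of arrays limits the precision.

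The members and the gene lists were chosen with earlier results of these data known. Of the 200 genes in 15 lists, 173 were measured. Genes named from the lists that are not marker lists are the members, up to 4 per list with the largest difference past the threshold in CD8 or CD4 Foxp3-positive against control cells, and the brightest that passed in neither. The 6 genes most like each member had a highest group mean at or above the median and group means spanning at least 1, with predicted genes, small RNAs and receptor segments passed over. Foxp3, Cd4 and Cd8b1 check the labels. Promoters came from RefSeq (GRCm38.p6), where both members matched. Alternatives were all clusters as features, trend and robust eBayes, a filter on low levels, median centring, cyclic loess, only the groups compared, a replicate block and leaving out each array.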

Additional observations from a re-analysis of the deposited data

Results flagged for a closer look

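The difference between Foxp3-positive and control cells had opposite directions by lineage in the dimmer Cyp11a1 cluster, where every CD4 Foxp3-positive array was below every CD4 control array and every CD8 Foxp3-positive array above every CD8 control array; the CD4 difference minus the CD8 difference was -1.71 on the log2 scale and was not tested.

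For genes named from the lists the same quantity was tested as an interaction in limma, where 6.01% of all genes passed with a negative and 7.48% with a positive value. It was negative in Il13 (-6.59), Il10 (-5.72), Il4 (-5.02), Epas1 (-4.14), Npc2 (-1.57), Akr1c12 (-1.52), Abca1 (-1.44), Hsd11b1 (-1.23), Akr1b8 (-1.19), Gata3 (-1.13), Cyb5a (-0.84) and Crem (-0.71). It was positive in Nr4a1 (1.26), Cyp39a1 (1.20), Cyp26b1 (0.96), Esr1 (0.95), Fkbp4 (0.89), Klf9 (0.64) and Cyp51 (0.56). The calls of Cyp26b1, Crem, Klf9 and Cyp51 were lost in at least 6 alternatives each, with adjusted p-values up to 0.0665, 0.0701, 0.105 and 0.116.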

How the results depend on the processing

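The member differences kept their direction in all alternatives run, except Akr1c18 in CD8 cells, whose difference spanned 0 when single arrays were left out (-0.27 to 0.12). Leaving out arrays in turn gave -0.63 to -0.40 for the brighter Cyp11a1 cluster in CD8 cells, 5.94 to 6.17 between CD4 and CD8 controls and -4.93 to -4.70 for the CD4 difference minus the CD8 difference, with 1 end of each range set by leaving out CD8 control array C and the other by leaving out array B; the other member differences stayed within 1 SD. The number of genes past the threshold stayed within 1.5 times in all alternatives, except between CD4 and CD8 Foxp3-positive cells, with 674 genes without CD8 Foxp3-positive array B and 687 without CD4 Foxp3-positive array A, against 1044 (674 to 1145 when arrays were left out in turn, and up to 1414 with low levels filtered). The samples were not paired by replicate letter. The correlations of same-letter deviations ranged from -0.10 to 0.14, which cannot exclude a pairing. With the letter as a replicate block 4359 genes passed in the CD8 comparison, 4872 in the CD4 comparison, 4595 between controls, 989 between Foxp3-positive groups and 2921 for the interaction. Of the 6 genes most like the brighter Cyp11a1 cluster, 0 remained by Spearman's rho or with the dimmer cluster, and 2 with lineage means taken out. Of the 6 most like Akr1c18, 0 remained by either. Cyclic loess raised the steroid synthesis enzymes that fell in CD4 cells to 5, and the cause was not tested. With only the groups compared in the fit, 4 glucocorticoid-induced genes and 3 steroid receptor genes fell in CD8 cells. Levels below the median of all genes, as for both CD8 groups of Akr1c18, limit the folds taken against them.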
